A study of Mus musculus with 15 samples.

Results

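The transcripts described here are those of 9 genes whose proteins work with the estrogen receptor: Ncoa1, Ncoa2, Ncoa3, Crebbp, Ep300 and Ppargc1a, known as coactivators, Ncor1 and Nrip1, known as corepressors, and Greb1, an estrogen-induced gene whose protein binds the receptor. Every probe whose gene name on the array equals one of these symbols was taken, which gave 27 probes of the 41174 on the array that are not controls. All 27 passed the filter on dim probes, as did 34776 probes (84.5%) of the whole array. The number of probes was 7 for Ncor1, 4 for Ep300, 3 each for Ncoa2, Ncoa3, Nrip1 and Crebbp, 2 for Ppargc1a, and 1 each for Ncoa1 and Greb1.

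Estrogen receptor α, once bound by hormone, recruits coactivators through a groove on its ligand-binding domain. The p160 family (Ncoa1, Ncoa2, and Ncoa3) docks there and brings in the histone acetyltransferases Crebbp and Ep300, while Ppargc1a is best known for driving mitochondrial biogenesis. Nrip1 (also called RIP140) occupies the same groove on agonist-bound receptors and recruits corepressor enzymes, so its induction by estrogen is a known form of negative feedback, and Ncor1 carries a histone deacetylase complex to unliganded or antagonist-bound receptors.

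Uteri came from ovariectomized wild-type adult mice at least 10 weeks old that had rested for 10 to 14 days after surgery and then received an intraperitoneal injection of 100 µL. There were 5 groups of 3 arrays: saline vehicle at 24 hr, estradiol (E2) at 2 hr and at 24 hr, and estriol (E3), which carries an additional hydroxyl group on its D ring, at 2 hr and at 24 hr, with 250 ng of either estrogen. The E2 2-hr mice were labelled as strain C57bl6/Jx129 and the other 4 groups as C57bl6/J. The E2 2-hr RNA was also hybridized on slides of its own and read on another scanner on another day, so treatment, strain, slide, and scanner cannot be told apart on those arrays. The 24-hr saline arrays served as the vehicle for both times, and all 4 comparisons against saline share them. In the 2-hr comparisons against saline, the estrogen and the time after injection therefore cannot be told apart. The labels describe separate uteri, whereas the methods of the study speak of pooled tissue, and p-values measure only the spread between these samples.

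Values are normalized log2 intensities, the log2 of the background-subtracted signal minus the log2 of the 75th percentile of the same array, so that 0 is the level of that percentile. A probe was called higher or lower in a comparison when limma gave a p-value below 0.001 and the change was at least 2-fold. Arrays of 1 group correlated at r of 0.982 or above over the tested probes, and 77.8% to 81.8% of probes were well above background on an array. Markers of uterine epithelium, stroma, and smooth muscle were well above background on all arrays. Of 6 stromal markers, 2 were called lower in either 2-hr group (Hoxa11 read 3.71 to 3.95 with saline and 2.54 to 2.99 and 2.03 to 2.19 at 2 hr with E2 and E3), and of 6 epithelial markers 3 were called higher and 1 lower with E2 at 24 hr. Their part in the results was not tested. Exocrine pancreas markers (8 listed, all on the array) were high on 4 arrays, E3 2-hr replicates 2 and 3 and E2 24-hr replicates 2 and 3, where the log2 of their summed signal lay at 9.06, 3.07, 7.77, and 1.84, against -2.14 to -0.96 on the other arrays. Liver markers (9 of 10 listed were on the array) had a summed log2 signal of 2.32 to 4.21 on the saline arrays and -3.53 to -3.21 on the E2 2-hr arrays. In whole uteri, fewer cells of a type and less RNA per cell cannot be told apart.

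The first 30 bases of the probes on which the results turn are printed here 5′ to 3′, in lower case throughout because no base is singled out, with the whole probe's position in the build that the array header names (mm7). These are the probes of the induced genes (Greb1 and Nrip1), of the gene whose signal fell (Ppargc1a), the brightest Crebbp and Ep300 probes, and the probe labelled Ncor1 that reads the strand opposite to the gene. Whether a probe lies in an exon, an intron, or an untranslated region was not analysed here.
Greb1 A_51_P127695 (chr12:16726515-16726574, minus strand): ctacagagcaatattccaaaggaacatttt
Nrip1 A_51_P152747 (chr16:76288606-76288665, minus strand): agagtctctcacaggttacagtcaaagaag
Nrip1 A_52_P609319 (chr16:76349069-76349128, minus strand): aatctagtgtgcatctgttaaggtgacagt
Nrip1 A_52_P413584 (chr16:76285529-76285588, minus strand): acagttgcaagtctggacaaatgtataaaa
Ppargc1a A_51_P279038 (chr5:50830839-50830898, minus strand): ccccttcaaatggcagcatttccatgaaga
Ppargc1a A_52_P5945 (chr5:50828808-50828867, minus strand): attcatttatcaccagcatattgtgttctg
Crebbp A_51_P518851 (chr16:3754746-3754805, minus strand): gctttgtttctctgataaaactggttttag
Ep300 A_52_P411601 (chr15:81735532-81735591, plus strand): aacaggccagatgaacctgagggataatag
Ncor1 A_52_P43661 (chr11:62407826-62407885, plus strand): gcaaaatagctgcagtatctacataaaatg

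At 2 hr after E2, 8 of the 27 probes were called, 6 higher and 2 lower (29.6% of the members), where 10.6% of all tested probes were called higher and 10.7% lower. After E3 at 2 hr, 6 probes were called, 4 higher and 2 lower, against 4.68% higher and 9.11% lower on the whole array. E2 at 24 hr gave 0 probes higher and 4 lower, against 6.93% and 11.1% of all probes (38.4% of the calls were higher, and 54.4% with normexp background correction). With normexp background correction or quantile normalization, 2 member probes were called lower. E3 at 24 hr gave 0 called probes in limma, against 1.85% higher and 1.96% lower of all probes, although 13 of the 27 had an unadjusted p below 0.05 and 9 an adjusted p below 0.05. With normexp background correction the median of all probes for E3 at 24 hr moved from -0.01 to 0.32 and 89.3% of the called probes were higher rather than 48.5% (58.8% with quantile normalization and 38.4% without scaling), and 9 member probes changed sign, among them 4 of those 9 with an adjusted p below 0.05. The E3 24-hr values of dim probes therefore have no settled direction. Some genes contributed several probes, and by gene, leaving out probes that read the opposite strand, the counts were 3 higher (Greb1, Nrip1, and Crebbp) and 1 lower for E2 at 2 hr, 2 higher and 1 lower for E3 at 2 hr, and 2 lower for E2 at 24 hr. The median log2 change over the 27 probes was 0.34 for E2 at 2 hr, -0.01 for E3 at 2 hr, -0.48 for E2 at 24 hr, and -0.26 for E3 at 24 hr, beside -0.08, -0.11, -0.06, and -0.01 over all tested probes.

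**Figure D1:**
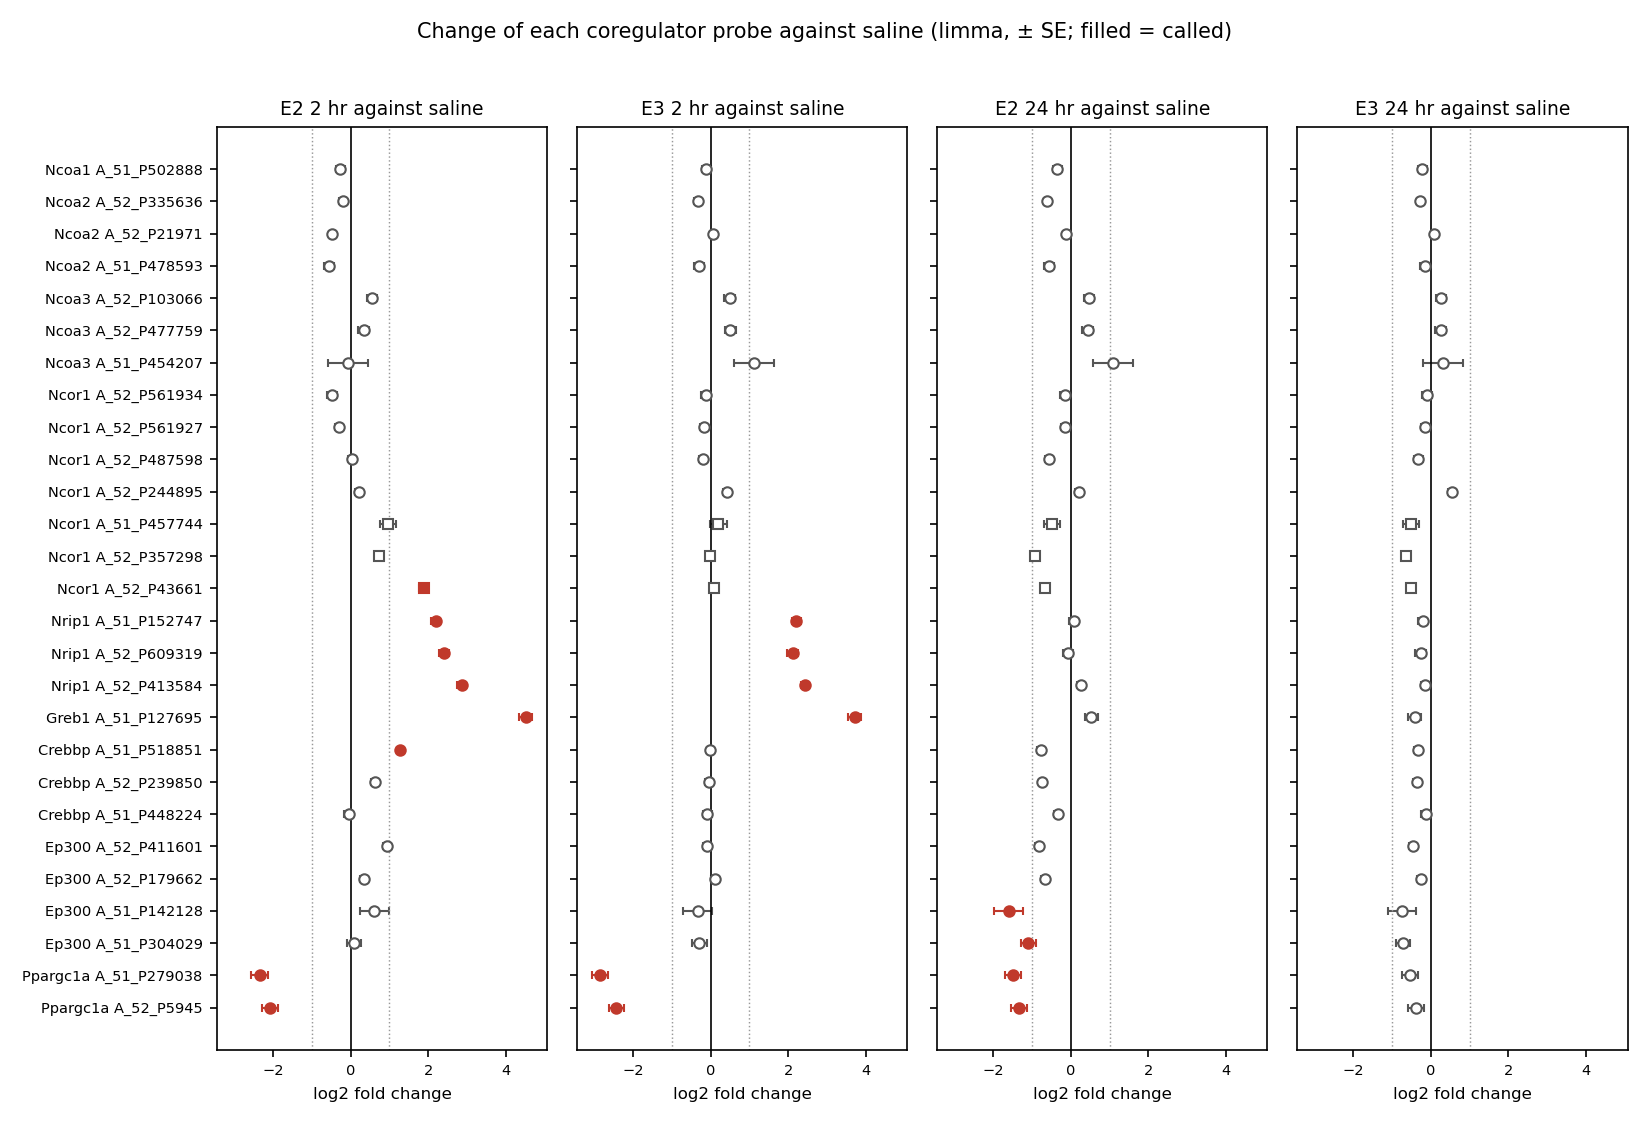
Log2 fold change against saline (x axis, limma estimate ± SE, 3 arrays a group) of each of the 27 coregulator probes (y axis), in 1 panel per treated group. Filled red marks are called probes, squares are probes that read the strand opposite to their gene, and dotted lines mark 2-fold. Nrip1 and Greb1 lie right of the 2-fold line and Ppargc1a left of it in both 2-hr panels, and no probe is filled in the E3 24-hr panel.

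Greb1 showed the steepest rise of any member. Its probe read -1.31, -1.36, and -1.51 on the saline arrays, 2.80, 3.21, and 3.32 after E2 at 2 hr, and 2.36, 2.33, and 2.27 after E3 at 2 hr. Both 2-hr groups lay far above saline with no overlap, and E2 lay above E3. At 24 hr the probe read -1.17, -0.69, and -0.75 after E2 and -1.55, -1.75, and -2.14 after E3, so that E2 was slightly above and E3 slightly below the saline arrays. The 2-hr changes were 22.7-fold for E2 (log2 4.51 ± 0.174 SE, n = 3, limma adjusted p = 3.86e-09) and 13.1-fold for E3 (log2 3.71 ± 0.174, limma adjusted p = 2.42e-08). At 24 hr the log2 changes were 0.53 for E2 (limma adjusted p = 0.0196) and -0.42 for E3 (limma adjusted p = 0.0786), neither of which reached 2-fold. In order of level the groups ran E2 2 hr (3.11), E3 2 hr (2.32), E2 24 hr (-0.87), saline (-1.39), and E3 24 hr (-1.82), and of these neighbours only E3 2 hr and E2 24 hr were more than 2-fold apart.

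Nrip1, the receptor's hormone-dependent corepressor, was called at all 3 probes after either estrogen at 2 hr. The brightest probe read 1.45, 1.34, and 1.44 with saline, 3.50, 3.65, and 3.69 with E2 at 2 hr, and 3.80, 3.66, and 3.37 with E3 at 2 hr. These E2 and E3 arrays overlapped each other and both lay clear of saline. By 24 hr the same probe had returned to 1.41, 1.51, and 1.54 with E2 and 1.33, 1.28, and 1.01 with E3. The change at 2 hr was 4.61-fold for E2 (log2 2.20 ± 0.116 SE, n = 3, limma adjusted p = 2.77e-08) and 4.60-fold for E3 (limma adjusted p = 5.5e-08). Of the other probes, A_52_P609319 rose 5.32-fold with E2 and 4.31-fold with E3, and A_52_P413584 rose 7.28-fold with E2 and 5.40-fold with E3. The last of these read -0.83, -0.86, and -0.71 with saline, 1.94, 2.12, and 2.13 with E2 at 2 hr, and 1.64, 1.77, and 1.48 with E3 at 2 hr, and here every E2 array lay above every E3 array. The 3 probes lie at separate places on the gene's strand and gave changes in the same direction at 2 hr. Only the brightest was designed to the RefSeq message, and the others to cDNA clones annotated as unclassifiable. Their 24-hr log2 changes, over all 3 probes, were between -0.07 and 0.27 for E2 and between -0.26 and -0.14 for E3, none called. In order of level, the brightest probe ran E2 2 hr and E3 2 hr (both 3.61), E2 24 hr (1.49), saline (1.41), and E3 24 hr (1.20), and the last 3 groups were not separated by limma (adjusted p = 0.586 and 0.19 against saline and 0.0751 between the estrogens).

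E3 2-hr arrays shared a slide with saline replicate 3, and on that slide the E3 2-hr log2 changes were 3.83 for Greb1, 2.17, 2.12, and 2.34 for the Nrip1 probes in the order given above, and -3.01 and -2.52 for the Ppargc1a probes. These values set 3 E3 arrays against 1 saline array, whose spread is assumed to be that of the other groups, and are given as sizes only.

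**Figure D2:**
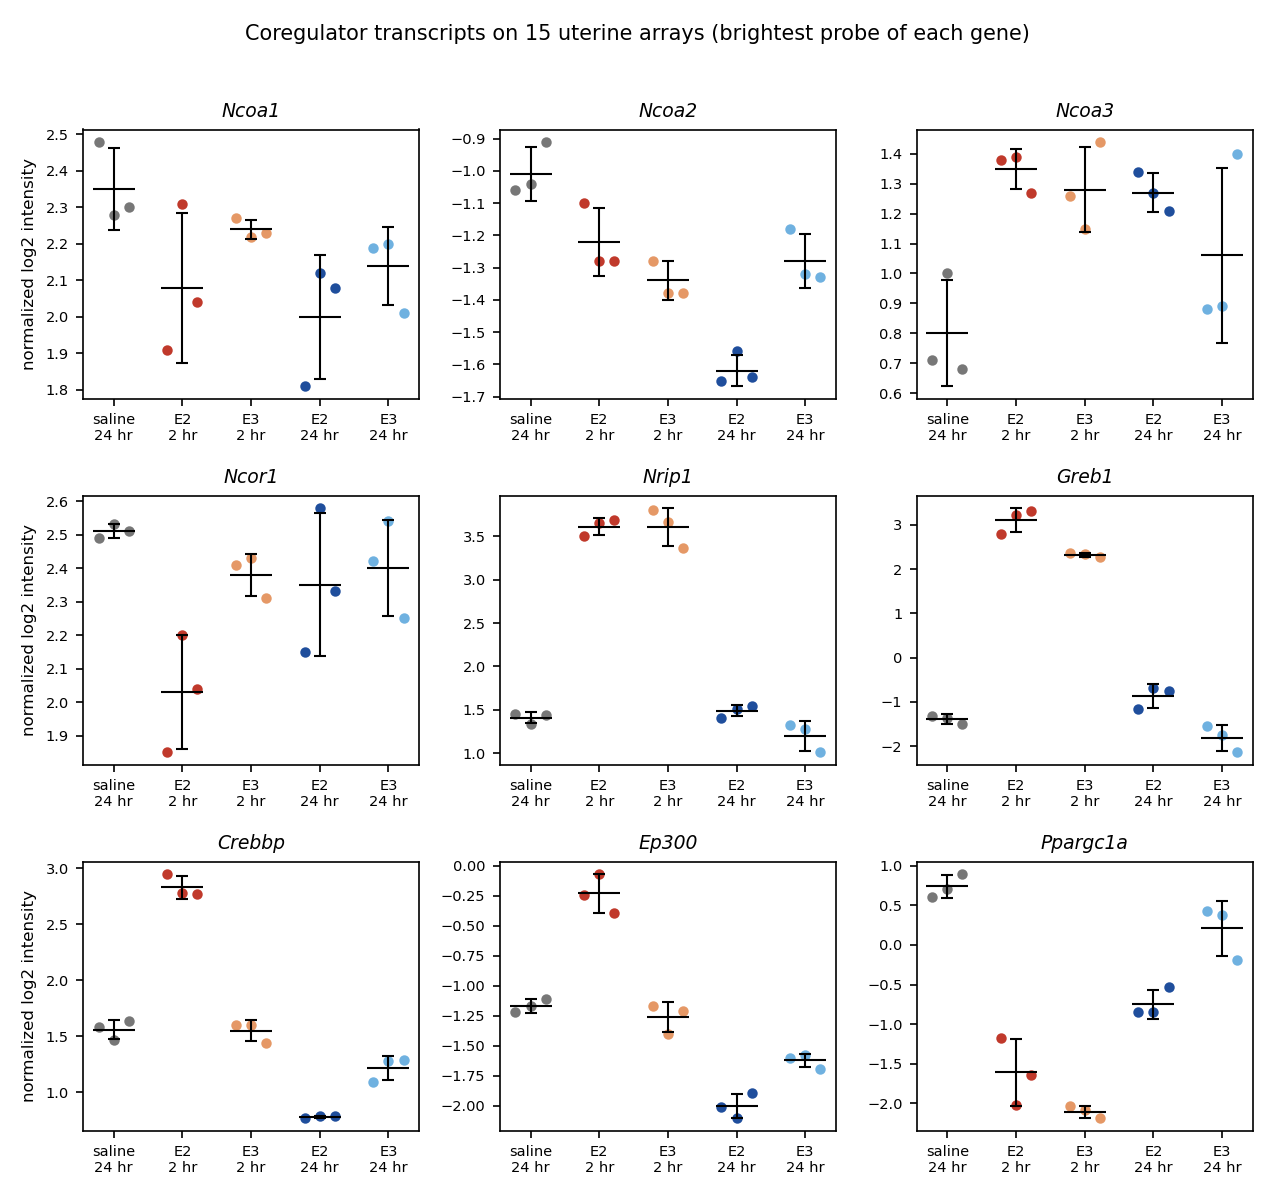
Normalized log2 intensity (y axis, a scale of its own in each panel) of the brightest probe of each gene in the 5 groups (x axis). Dots are the 3 arrays and black marks the mean ± SD. Greb1 and Nrip1 were high in the 2-hr groups alone, Ppargc1a was lowest there, and Crebbp and Ep300 stood high on the E2 2-hr arrays only.

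The genes whose pattern over the 15 arrays was most like that of Greb1, by Pearson correlation of normalized log2 values, were Nrip1 (probe A_52_P413584, r = 0.996), Gadd45g (0.995), and Gpr4 (0.993). Those most like the brightest Nrip1 probe were Phf23 (0.997), Klhl11 (0.997), and A330102K23Rik (0.995). These values describe 15 arrays in which the 2-hr groups stand apart from the rest. Phf23, as an example, averaged 2.05 with saline, 3.14 and 3.21 at 2 hr with E2 and E3, and 2.07 and 1.91 at 24 hr.

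Because Greb1 and Nrip1 moved together, the 250 bases upstream of their annotated start sites were searched on both strands for the estrogen response element, its single arm, and binding motifs of AP-1 and Sp1, to which the receptor can tether. The full element (GGTCANNNTGACC) was in none of the 10 windows of the 7 members with an entry, and in 0.0639% of the 32851 windows of all genes. Its arm, GGTCA or TGACC on the other strand, was found at 1 place in the first windows of Nrip1 and Greb1 and at 2 places in the other Greb1 window, and in no window of Ncoa1, Ncor1, Crebbp, Ep300, or Ppargc1a. It occurs in 35.2% of all windows, so that a match is common. The AP-1 motif (TGANTCA) was in no member window and in 6.75% of all, and the Sp1 motif (GGGCGG) was in the windows of Ncoa1, Crebbp, and Ep300, in 1 of the windows each of Ncor1 and Nrip1, and in 32.7% of all. The 3 windows with an arm (RefSeq, GRCm38.p6), with the arm in capitals, read as follows 5′ to 3′.
Greb1, start site 1 (chr12:16800887-16801136, minus strand): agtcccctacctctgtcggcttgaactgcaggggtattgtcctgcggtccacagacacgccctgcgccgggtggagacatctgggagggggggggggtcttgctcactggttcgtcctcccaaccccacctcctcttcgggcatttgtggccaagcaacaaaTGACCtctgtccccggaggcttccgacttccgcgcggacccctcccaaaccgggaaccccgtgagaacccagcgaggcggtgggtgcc
Greb1, start site 2 (chr12:16757240-16757489, minus strand): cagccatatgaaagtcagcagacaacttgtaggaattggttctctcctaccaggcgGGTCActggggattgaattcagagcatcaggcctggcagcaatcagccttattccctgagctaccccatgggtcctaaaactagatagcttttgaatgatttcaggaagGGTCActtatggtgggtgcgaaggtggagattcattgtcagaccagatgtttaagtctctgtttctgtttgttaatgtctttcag
Nrip1, start site 1 (chr16:76373828-76374077, minus strand): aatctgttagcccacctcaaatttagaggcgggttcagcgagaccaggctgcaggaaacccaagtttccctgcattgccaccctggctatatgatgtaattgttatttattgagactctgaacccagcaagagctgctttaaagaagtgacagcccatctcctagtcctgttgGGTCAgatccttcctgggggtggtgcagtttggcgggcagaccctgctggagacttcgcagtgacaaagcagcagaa

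Ppargc1a fell at both probes in both 2-hr groups and stayed low at 24 hr with E2. The brightest probe read 0.61, 0.71, and 0.90 with saline, -1.17, -2.02, and -1.64 with E2 at 2 hr, and -2.04, -2.08, and -2.19 with E3 at 2 hr. At 24 hr it read -0.85, -0.85, and -0.53 with E2 and 0.43, 0.38, and -0.19 with E3. All treated arrays lay below all saline arrays, and the E3 24-hr arrays lay nearest to them. The fall at 2 hr was 5.10-fold for E2 (log2 change -2.35 ± 0.207 SE, n = 3, limma adjusted p = 1.22e-06) and 7.19-fold for E3 (-2.85 ± 0.207, limma adjusted p = 5.37e-07). At 24 hr it was 2.80-fold for E2 (-1.49, limma adjusted p = 6.22e-05), while E3 gave a log2 change of -0.53 that was not called (limma adjusted p = 0.0663). The other probe, A_52_P5945, read -1.08 to -1.45 with saline and gave log2 changes of -2.08 and -2.43 at 2 hr for E2 and E3 and of -1.33 at 24 hr for E2, all called, and of -0.39 at 24 hr for E3, which was not. From high to low the groups ran saline, E3 24 hr, E2 24 hr, E2 2 hr, and E3 2 hr at both probes, where limma did not separate saline from E3 24 hr (adjusted p = 0.0663 and 0.167) or the 2-hr groups from each other (adjusted p = 0.0711 and 0.197).

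Liver, fat, and muscle also express Ppargc1a. Of the 9 liver markers, 8 were called lower with E2 at 2 hr, 2 with E3 at 2 hr, 8 with E2 at 24 hr, and 7 with E3 at 24 hr. Their summed log2 signal was 0.32 to 1.61 on the E3 2-hr arrays, where Ppargc1a was lowest, and -1.61 to -0.88 on the E3 24-hr arrays, where Ppargc1a was near saline. Albumin, the defining liver marker, was well above background on 1 of the 3 E2 2-hr arrays. None of the 7 fat markers was called in any of the 9 comparisons, and their summed log2 signal was 4.25 to 6.63 with saline, 4.96 to 5.78 and 5.03 to 6.45 at 2 hr with E2 and E3, 3.74 to 4.38 with E2 at 24 hr, and 3.79 to 6.18 with E3 at 24 hr. Of the 2 brown fat markers, Ucp1 was well above background on 2 of the 15 arrays and was not tested, and Cidea read -1.49 to -0.78 with saline, -1.02 to -0.58 and -1.45 to -1.25 at 2 hr with E2 and E3, -3.37 to -2.91 with E2 at 24 hr, and -2.12 to -1.44 with E3 at 24 hr. Cidea was called lower with E2 at 24 hr against saline and higher with E3 than with E2 at 24 hr, and its interaction of time and compound was called upward, the same directions as Ppargc1a, whereas it was not called with either estrogen at 2 hr and was called lower at 24 than at 2 hr of E2, opposite to the Ppargc1a values. The 9 skeletal muscle markers gave 2.86 to 3.05 with saline, 1.98 to 2.13 and 2.56 to 2.69 at 2 hr with E2 and E3, 4.54 to 4.81 with E2 at 24 hr, and 3.82 to 4.05 with E3 at 24 hr. The part of these tissues in the Ppargc1a values was not tested. Without the 4 arrays with pancreas markers, which left 1 array in the E2 24-hr group, the E2 24-hr changes were -1.59 and -1.26 and were no longer called.

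Crebbp and Ep300, the paralogous acetyltransferases, differed between the estrogens at 2 hr. The brightest Crebbp probe read 1.58, 1.47, and 1.64 with saline, 2.95, 2.78, and 2.77 with E2 at 2 hr, and 1.60, 1.60, and 1.44 with E3 at 2 hr. It was 2.41-fold higher with E2 (log2 1.27 ± 0.084 SE, n = 3, limma adjusted p = 1.32e-07), whereas E3 left it at a log2 change of -0.01 (limma adjusted p = 0.908). At 24 hr it read 0.77, 0.79, and 0.79 with E2 and 1.09, 1.28, and 1.29 with E3, all below the saline arrays, with log2 changes of -0.78 and -0.34 that passed the adjusted threshold without reaching 2-fold. This probe was designed to a cDNA clone rather than to a RefSeq message. The RefSeq probe of Crebbp, A_52_P239850, read -3.67, -3.65, and -3.65 with saline, -3.05, -2.91, and -3.16 with E2 at 2 hr, and -3.81, -3.69, and -3.64 with E3 at 2 hr. The same order of the 2-hr groups was thus seen at a lower signal, with log2 changes of 0.62, -0.05, -0.73, and -0.35 for E2 2 hr, E3 2 hr, E2 24 hr, and E3 24 hr. The remaining probe, A_51_P448224, gave -0.05, -0.09, -0.33, and -0.13 in this order, so the call with E2 at 2 hr was made at 1 probe of 3.

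The brightest Ep300 probe read -1.22, -1.17, and -1.11 with saline and -0.24, -0.07, and -0.39 with E2 at 2 hr, which did not overlap. Its log2 change of 0.93 ± 0.0972 (SE, n = 3, limma adjusted p = 4.78e-06) lay just under 2-fold and was called without scaling (1.03) or without E2 2-hr replicate 3 (1.01), and with E3 at 2 hr it was -0.09. At 24 hr it read -2.01, -2.10, and -1.89 with E2 and -1.60, -1.58, and -1.69 with E3, log2 changes of -0.83 and -0.46. The other Ep300 probe designed to the RefSeq message, A_52_P179662, gave 0.34, 0.11, -0.66, and -0.25 for E2 2 hr, E3 2 hr, E2 24 hr, and E3 24 hr. With normexp background correction the E3 24-hr changes of the RefSeq probes A_52_P239850 of Crebbp and A_52_P179662 of Ep300 turned positive (0.35 and 0.44). The remaining probes, A_51_P142128 and A_51_P304029, derive from cDNA clones and were called lower with E2 at 24 hr (-1.60 and -1.09), but they were dim and well above background on 2 of the 3 E2 24-hr arrays. With normexp background correction these changes were -0.52 and -0.31 and not called. The call of A_51_P142128 was also lost on leaving out any 1 of 13 of the 15 arrays, with changes between -1.72 and -1.12, and that of A_51_P304029 without E2 24-hr replicate 1 (-0.85).

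The values of Crebbp and Ep300 above saline at 2 hr rest on the E2 2-hr arrays with their other strain, slides, and scanner. The rises of Greb1 and Nrip1 and the fall of Ppargc1a were called on the E3 2-hr arrays too, which share strain and scanner with saline.

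Ncor1, the nuclear receptor corepressor, was called at none of the 4 probes that read its own strand. The brightest, A_52_P561934, read 2.49, 2.53, and 2.51 with saline, 1.85, 2.20, and 2.04 with E2 at 2 hr, and 2.41, 2.43, and 2.31 with E3 at 2 hr. It read 2.15, 2.58, and 2.33 with E2 at 24 hr and 2.42, 2.54, and 2.25 with E3 at 24 hr. The E2 2-hr arrays were the lowest as a group, with a log2 change of -0.48 ± 0.118 (SE, n = 3, limma adjusted p = 0.00363), and the other 3 treated groups changed by -0.16 to -0.10. Over the 4 probes and 4 treated groups the log2 changes ran from -0.57 to 0.54, and with E3 at 24 hr the probe A_52_P244895 gave 0.54 (limma adjusted p = 0.00182) where the probe A_52_P487598 gave -0.32 (limma adjusted p = 0.0386).

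Another 3 probes carry the name Ncor1 but are placed on the plus strand, opposite to the gene, by the array's coordinates, so that whether they read the Ncor1 message is uncertain. By the same placement, 99% of 14483 probes designed to RefSeq messages lay on the strand of their gene. The opposite-strand probe A_52_P43661 read -5.14, -5.18, and -5.15 with saline and -3.39, -3.26, and -3.18 with E2 at 2 hr, a 3.68-fold rise (log2 1.88 ± 0.106 SE, n = 3, limma adjusted p = 4.29e-08). On the E3 2-hr arrays it read -4.99, -5.17, and -5.06, overlapping saline. With normexp background correction the E2 change was 1.35 and not called. The other opposite-strand probes gave log2 changes of 0.97 (A_51_P457744) and 0.74 (A_52_P357298) with E2 at 2 hr, not called, and of 0.20 and -0.01 with E3. The first was called with quantile normalization (1.13) or without saline replicate 3 (1.28). At 24 hr the changes of A_51_P457744, A_52_P357298, and A_52_P43661 were -0.48, -0.93, and -0.66 with E2 and -0.52, -0.64, and -0.52 with E3, of which -0.93 became a call (-1.01) without E2 24-hr replicate 3 and all 3 E3 values turned positive with normexp background correction. The probe A_52_P357298 read -4.57, -4.63, and -4.51 with saline, -3.73, -3.92, and -3.85 with E2 at 2 hr, and -4.56, -4.54, and -4.64 with E3 at 2 hr. All 3 opposite-strand probes were designed to cDNA clones, of which that of A_52_P357298 is itself annotated as Ncor1, and in them the E2 2-hr arrays lay above all others.

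**Figure D3:**
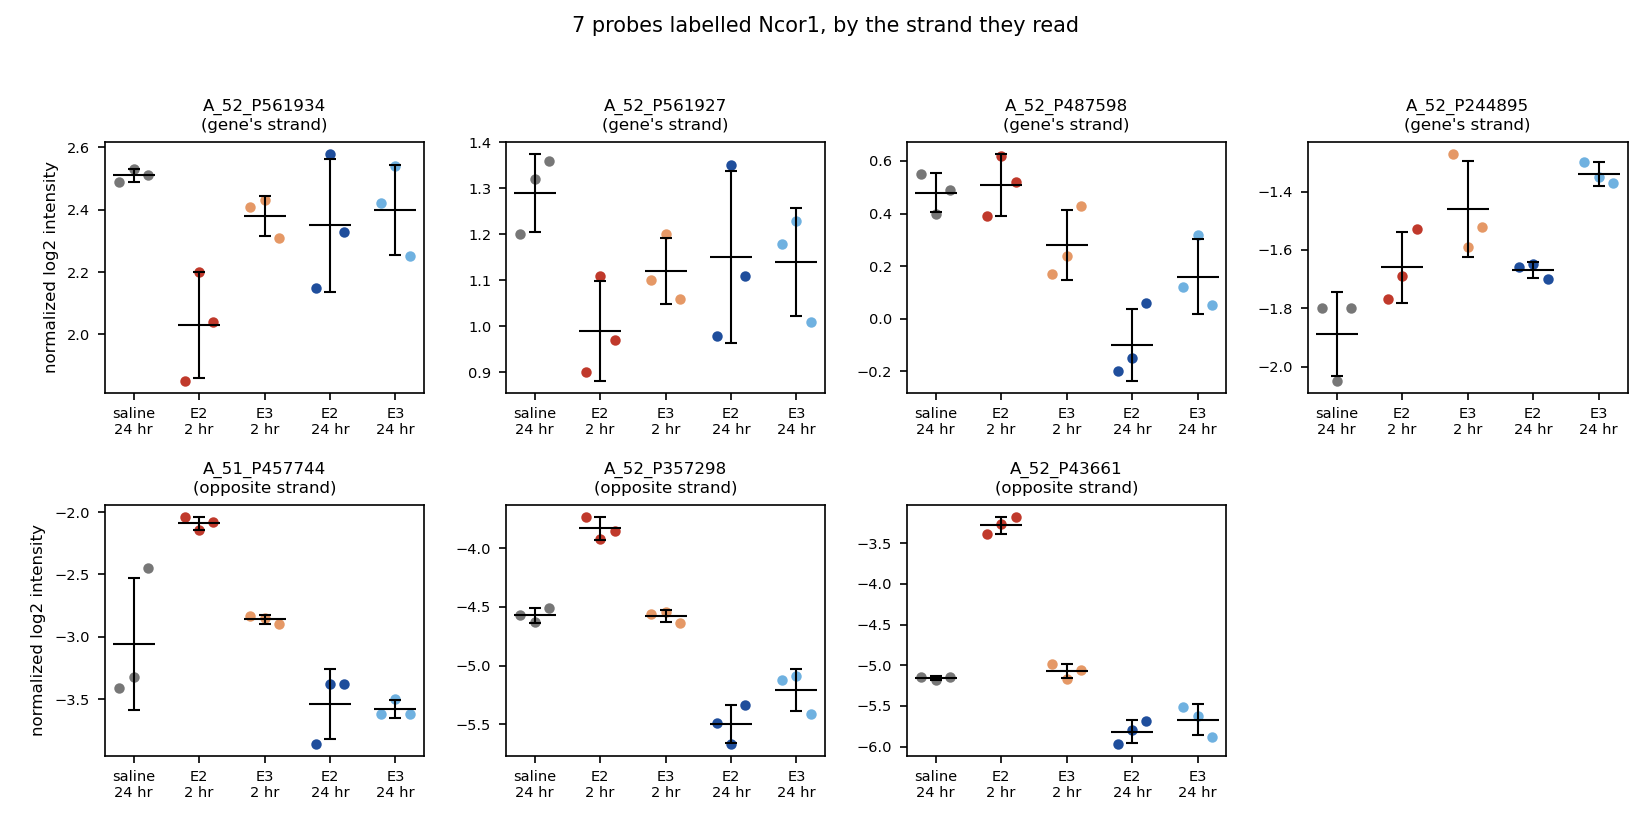
Normalized log2 intensity (y axis, a scale of its own in each panel) of the 7 probes labelled Ncor1 in the 5 groups (x axis), with the strand each reads given above its panel. Dots are the 3 arrays and black marks the mean ± SD. The 3 opposite-strand probes were highest on the E2 2-hr arrays, and no such rise is seen at the 4 probes on the gene's strand.

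Of the p160 coactivators, none of the 7 probes was called in any of the 9 comparisons, although several had an adjusted p below 0.05. Ncoa1 read 2.28 to 2.48 with saline and 1.81 to 2.31 over the 12 treated arrays, with log2 changes of -0.27, -0.11, -0.35, and -0.22 for E2 2 hr, E3 2 hr, E2 24 hr, and E3 24 hr. Ncoa2 at its brightest probe read -1.06, -1.04, and -0.91 with saline and -1.65, -1.56, and -1.64 with E2 at 24 hr, a log2 change of -0.61 ± 0.0796 (SE, n = 3, limma adjusted p = 3.65e-05). All treated arrays lay below all saline arrays at this probe, with log2 changes of -0.21, -0.34, and -0.27 in the other groups. The probe A_51_P478593 gave -0.56, -0.30, -0.56, and -0.16 for E2 2 hr, E3 2 hr, E2 24 hr, and E3 24 hr. The probe A_52_P21971 gave -0.48, 0.07, -0.11, and 0.09, with an E3 minus E2 difference of 0.56 at 2 hr (95% interval 0.39 to 0.72, limma adjusted p = 0.000122).

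Ncoa3, the p160 member amplified in some breast cancers, was likewise not called. Its brightest probe read 0.71, 1.00, and 0.68 with saline, 1.38, 1.39, and 1.27 with E2 at 2 hr, and 1.26, 1.15, and 1.44 with E3 at 2 hr, and each 2-hr group lay above saline. Its log2 changes were 0.55 and 0.49 at 2 hr for E2 and E3 (limma adjusted p = 0.00405 and 0.0111) and 0.47 and 0.26 at 24 hr (limma adjusted p = 0.0101 and 0.166), all under 2-fold. The probe A_52_P477759 gave 0.34 and 0.50 at 2 hr for E2 and E3 and 0.44 and 0.25 at 24 hr.

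The third Ncoa3 probe, A_51_P454207, did not follow the others. It read -3.76 to -3.41 with saline, -3.76 to -3.44 with E2 at 2 hr, and -3.33 to -3.19 with E3 at 24 hr. In the remaining groups it split, at -3.37, -1.06, and -2.98 with E3 at 2 hr and at -3.22, -1.50, and -2.78 with E2 at 24 hr. The 4 arrays on which it was highest are the 4 with exocrine pancreas markers, and the highest of all (-1.06 and -1.50) are those with the most marker signal (9.06 and 7.77). Its log2 change was -0.07 with E2 at 2 hr and 0.31 with E3 at 24 hr. Its log2 changes of 1.11 with E3 at 2 hr and 1.08 with E2 at 24 hr (limma adjusted p = 0.0959 and 0.0881) were not called. Without those 4 arrays, which leaves 1 array in either group, they were 0.21 and 0.36, a fall that follows from their being the arrays with the highest values.

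**Figure D4:**
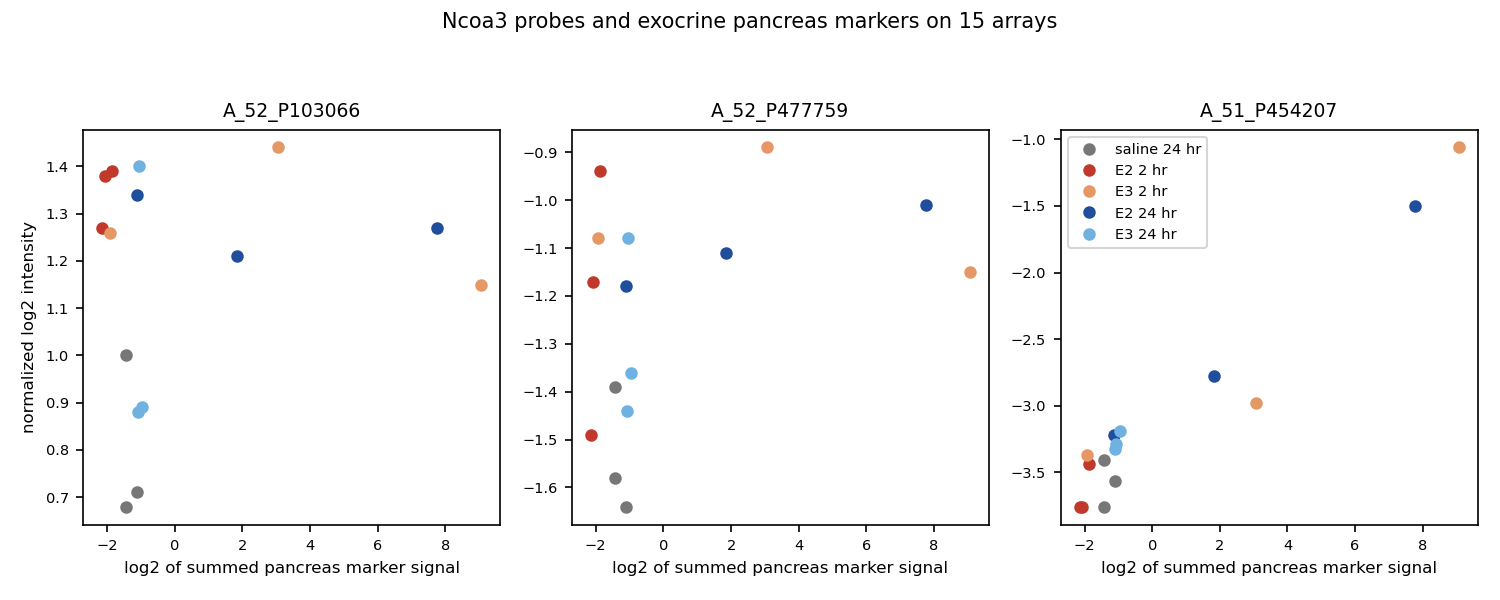
Normalized log2 intensity (y axis) of the 3 Ncoa3 probes, 1 in each panel, against the log2 of the summed signal of 8 exocrine pancreas markers (x axis) on the 15 arrays, coloured by group. Only A_51_P454207 is highest (-2.98 to -1.06) on the 4 arrays with a marker signal of 1.84 or more.

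E3 was compared with E2 at the same dose and time over all 27 probes, with p-values adjusted over all tested probes of the array. At 2 hr the groups also differed in strain, slides, scanner, and scan day, which cannot be told apart from the compound. At 2 hr, 0 probes were higher and 3 lower with E3 (11.1% of the members), where 1.54% of all probes were higher and 5.83% lower. These were Crebbp A_51_P518851 (log2 difference -1.28, 95% interval -1.47 to -1.10), Ep300 A_52_P411601 (-1.03, -1.24 to -0.81), and the opposite-strand Ncor1 probe A_52_P43661 (-1.80, -2.03 to -1.57). The Ep300 call was lost without E2 2-hr replicate 2 (-0.94) or E3 2-hr replicate 2 (-0.96), and with normexp background correction the Ep300 and Ncor1 calls were lost (-0.98 and -1.31). Without the 4 arrays with pancreas markers, which leaves 1 array in the E3 2-hr group, the Ep300 difference was -0.93. The Greb1 difference was -0.79 (95% interval -1.17 to -0.42, limma adjusted p = 0.00311), or 1.73-fold, short of the 2-fold limit. For Nrip1 the differences were 0.00 (-0.25 to 0.25), -0.30 (-0.60 to -0.01), and -0.43 (-0.66 to -0.20) at the 3 probes, and all 3 intervals lie within 2-fold. For Ppargc1a they were -0.50 (-0.95 to -0.05) and -0.34 (-0.79 to 0.10).

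At 24 hr, 0 of the 27 probes were called between E3 and E2 in limma, against 2.77% higher and 2.07% lower of all probes, although 16 had an unadjusted p below 0.05 and 12 an adjusted p below 0.05. The widest gaps lay just under 2-fold. The Ppargc1a difference was 0.96 (0.51 to 1.41, limma adjusted p = 0.0036) and 0.94 (0.50 to 1.39, limma adjusted p = 0.00366) at its probes, and the E3 arrays lay above all E2 arrays. The Greb1 difference was -0.95 (-1.33 to -0.57, limma adjusted p = 0.00129), with all E3 arrays below the E2 arrays. Ppargc1a A_51_P279038 was called without E2 24-hr replicate 3 (1.06) or without E3 24-hr replicate 3 (1.15), and A_52_P5945 with normexp background correction (1.05). Greb1 was called without E2 24-hr replicate 1 (-1.10), without E3 24-hr replicate 1 (-1.08), or without scaling. The differences of Crebbp A_51_P518851, Ep300 A_52_P411601, and the brightest Ncoa2 probe were 0.44 (0.25 to 0.62), 0.38 (0.17 to 0.59), and 0.34 (0.17 to 0.51).

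**Figure D5:**
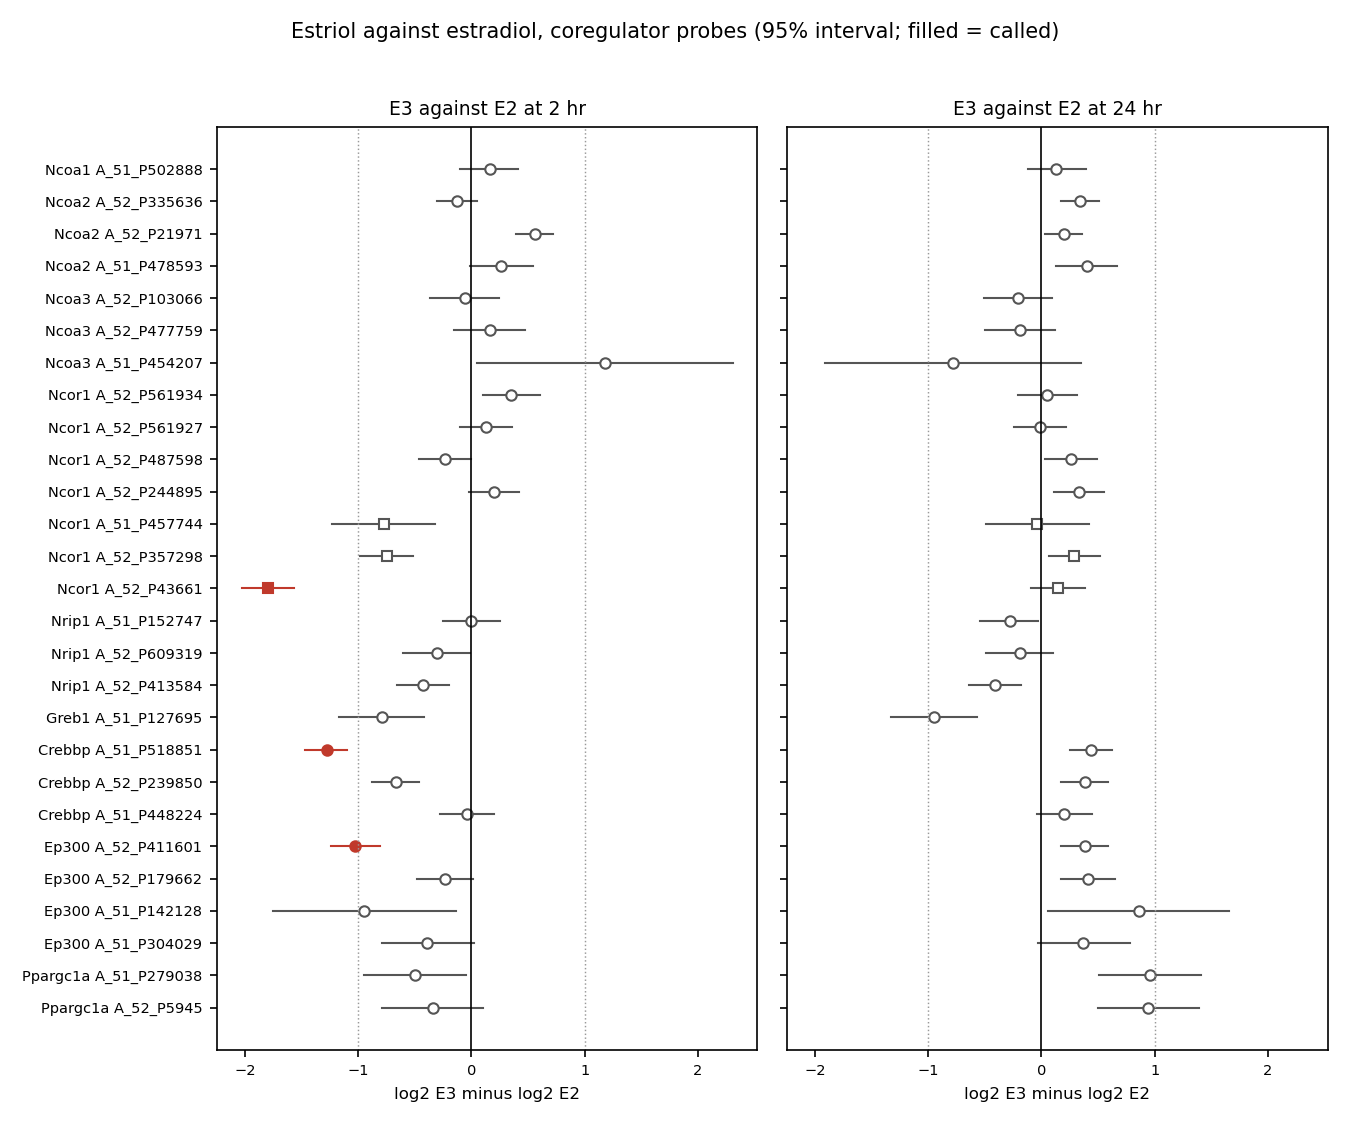
Log2 difference of E3 minus E2 (x axis) with its 95% interval for each of the 27 coregulator probes (y axis) at 2 hr and at 24 hr, 3 arrays a group. Filled red marks are called probes, squares read the strand opposite to the gene, and dotted lines mark 2-fold. The called differences are 3 at 2 hr, all below 0, and 0 at 24 hr, where the Ppargc1a probes lie furthest right (0.96 and 0.94).

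Between 2 and 24 hr of E2, 0 probes rose and 13 fell (48.1%), where 13.9% of all probes rose and 17.2% fell. Leaving out opposite-strand probes, 10 fell, and these belong to Greb1, Nrip1, Crebbp, and Ep300 alone. With normexp background correction 6 member probes fell, and the fallen probes of the whole array went from 5983 to 2969. With E3 2 rose, both of Ppargc1a, and 4 fell, of Nrip1 and Greb1, against 9.65% and 6.46% of all probes. The Ppargc1a changes with E2 between these times were 0.86 and 0.76 (limma adjusted p = 0.00244 and 0.00535), not called, and the first was called (1.08) without E2 2-hr replicate 1. Greb1 fell by 3.98 on the log2 scale with E2 and by 4.14 with E3 between these times. The E3 minus E2 difference changed between 2 and 24 hr (time by compound interaction) at 7 probes, all upward, against 11.1% upward and 4.39% downward over the array. They were both Ppargc1a probes (1.45 and 1.28), Crebbp A_51_P518851 (1.72) and A_52_P239850 (1.05), Ep300 A_52_P411601 (1.40), and the opposite-strand Ncor1 probes A_52_P43661 (1.95) and A_52_P357298 (1.04). Of 29 alternatives, the call was lost in 16 for Ppargc1a A_52_P5945 (1.02 to 1.51) and in 7 for A_51_P279038 (1.23 to 1.65). It was lost in 4 for Crebbp A_52_P239850, in 7 and 1 for Ncor1 A_52_P357298 and A_52_P43661, and in 0 for Crebbp A_51_P518851 and Ep300 A_52_P411601. With an adjusted p below 0.05 in place of p below 0.001, 9 probes were called, 8 upward and 1 downward, the added ones being Ncoa3 A_51_P454207 (-1.96) and Ep300 A_51_P142128 (1.81). Greb1 and the Nrip1 probes gave interaction values between -0.28 and 0.11, none called. Every interaction value includes the E2 2-hr arrays.

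Other genes of receptor signaling were read from lists, 1 probe a gene. Of the 7 receptors tested, Esr1 itself, which encodes estrogen receptor α, was not called against saline in any group. It read 3.70, 3.58, and 3.69 with saline, 3.94, 4.02, and 4.08 with E2 at 2 hr, and 3.22, 3.24, and 2.91 with E3 at 2 hr. At 24 hr it read 3.04, 3.41, and 3.24 with E2 and 3.22, 3.49, and 2.98 with E3. The log2 changes were 0.36 and -0.53 at 2 hr for E2 and E3 and -0.43 for both at 24 hr, and at 2 hr the E3 arrays lay below the E2 arrays (difference -0.89, limma adjusted p = 0.000307). Pgr, the progesterone receptor and a classical estrogen target, rose 5.44-fold with E2 and 4.33-fold with E3 at 2 hr and 2.14-fold with E2 at 24 hr. Gper1, a membrane receptor for estrogen, fell 4.99-fold with either estrogen at 2 hr. Esrrg, an orphan receptor of the estrogen-related group, rose 2.77-fold with E2 at 2 hr. Esr2, which encodes estrogen receptor β, was well above background on the E2 24-hr arrays alone, where it was at least 1.30-fold higher than with saline (limma adjusted p = 5.23e-05).

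Among 25 further genes listed as coactivators and tested, 3 rose with E2 at 2 hr and 1 with E3, shares close to the 10.6% and 4.68% of all probes. Pprc1, a relative of Ppargc1a, rose with both (4.55-fold and 3.78-fold), in the direction opposite to Ppargc1a, and Med1 and Ddx5 rose 2.08-fold with E2. At 24 hr, 2 rose with E2, Brca1 (5.42-fold) and Prmt1 (2.18-fold), against 6.93% of all probes, and 0 with E3 in limma, where 12 had an unadjusted p below 0.05. Whether Brca1 acts as a coactivator of the receptor was not tested, and its rise is not read as feedback on coactivators. The median log2 change of the list was 0.30 and 0.17 at 2 hr and -0.06 and -0.08 at 24 hr for E2 and E3, beside -0.08, -0.11, -0.06, and -0.01 over all probes. Brca1 and Pprc1 were 2.80-fold and 2.27-fold lower with E3 than with E2 at 24 hr.

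Among 16 further corepressors, Nr0b2, an orphan receptor that represses other nuclear receptors, rose 2.48-fold with E2 and 3.33-fold with E3 at 2 hr. Nr0b1, its relative, fell 2.95-fold with E2 at 2 hr, where 2 of the 3 arrays were well above background. It was also called lower with both estrogens at 24 hr, but with 1 array of either group well above background no fold is given. None of the histone deacetylases listed was called against saline, and the medians of the list lay between -0.04 and 0.11.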

How the data were processed

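Uterine RNA of 15 samples (5 groups of 3) was labelled with Cy3 and hybridized to 1-colour Agilent mouse arrays. The authors deposited scanner intensities extracted with Agilent Feature Extraction 9.5.3.1, whose processed signal is background-subtracted, and a table of the same intensities. The array header names the build mm7.

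Spots flagged as outliers were left out, spots of a probe were averaged, and the log2 of the deposited intensity was taken minus the log2 of each array's 75th percentile. Probes were kept where some group had 2 or more arrays well above background, and were tested in limma 3.58.1 (R 4.3.3), with 5 group means and 15 arrays in 1 fit (10 residual degrees of freedom), and p-values were adjusted by Benjamini-Hochberg over all 34776 tested probes (34766 where E2 at 2 hr entered). Calls needed p below 0.001 and a 2-fold change, the cutoffs of the study's heat maps. The brightest probe of a gene was named first, every probe of a member was reported, and genes of the lists were named where called (1 result is not reported here), with Esr1 and Esr2 added after their values were seen. Probe genes were those of the array's own annotation, and all 9 symbols and the accessions of 13 of the 27 probes were found in the RefSeq table, which also gave the strand of each gene and the promoter windows. The members and lists were chosen with earlier results of these data known. Intensities of 1 array carry no replicate error of their own, and 3 arrays a group limit the precision. Over arrays the 75th percentile lay between 2990 and 4410 intensity units and the lowest signal well above background between -8.29 and -7.76 on the normalized log2 scale. Alternatives in background correction (normexp, offset 50), scaling, filter, thresholds, slides, and single arrays were computed, the one leaving out the 4 arrays with pancreas markers being chosen after seeing the data. The model was tested on simulated data.

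Replicate numbers are shared by the groups, but 9 of 30 same-numbered pairs of arrays correlated above 0.1 in their deviations from the group means, and the numbers were not taken to pair samples.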

Additional observations from a re-analysis of the deposited data

Results flagged for a closer look

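Between 2 and 24 hr, the log2 change within a compound was called at 13 probes for E2 and at 6 for E3, and the change from 2 to 24 hr differed between the compounds at 7. With E2 the changes were -3.98 for Greb1, -2.13, -2.48, and -2.60 for the Nrip1 probes, -2.05 and -1.34 for 2 of the Crebbp probes, and -1.77, -1.0, -2.21, and -1.18 for the Ep300 probes, of which the last 2 values belong to the dim clone-derived probes. The 3 opposite-strand probes labelled Ncor1 gave -1.45, -1.67, and -2.54 with E2. Under alternatives, the call of Ep300 A_52_P179662 was lost in 7 of 29 (-1.11 to -0.72). Those of Ep300 A_51_P142128 and A_51_P304029 were lost in 2 of 29 and 3 of 28. Crebbp A_52_P239850 and each opposite-strand probe lost their calls with normexp background correction only. With E3 the changes were -4.14 for Greb1, -2.41, -2.37, and -2.58 for Nrip1, and 2.32 and 2.04 for Ppargc1a.

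The difference between the compounds moved over time by 1.45 and 1.28 at the Ppargc1a probes, 1.72 and 1.05 at 2 of the Crebbp probes, 1.40 at Ep300 A_52_P411601, and 1.04 and 1.95 at the opposite-strand probes A_52_P357298 and A_52_P43661. Among single arrays, the call of Ppargc1a A_51_P279038 was lost without E2 24-hr replicate 1 or 2 (1.40), E3 2-hr replicate 3 (1.41), or E3 24-hr replicate 1 or 2 (1.34 and 1.37), and that of A_52_P5945 on leaving out any of 12 arrays (1.05 to 1.35). The call of Crebbp A_52_P239850 was lost without E2 2-hr replicate 2 (0.98) or E3 24-hr replicate 2 (0.95). Without E3 24-hr replicate 2 the number of such probes was 3, and it was 4 without E3 24-hr replicate 1 or without E2 24-hr replicate 2. The E2 2-hr arrays enter each of the E2 and interaction values, and the part of their strain, slides, and scanner in these values was not tested.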

How the results depend on the processing

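The Greb1 and Nrip1 calls at 2 hr held under every alternative run, with Greb1 between 4.40 and 4.66 for E2 and between 3.65 and 3.83 for E3. Of 1367 values of called probes under alternatives, 1285 stayed called, 82 kept their direction without the call, and 0 reversed. Alternatives in threshold or filter, and those without an array of another group, leave the log2 change as it is and could not reverse it. Among probes that were not called, some changed sign with another background correction or scaling. Counts of called members moved as follows, and the cause was not tested. With p below 0.001 and no minimum change, they were 14 for E2 at 2 hr, 13 for E2 at 24 hr, 4 for E3 at 24 hr, and 7 and 4 for E3 against E2 at 2 and 24 hr. With an adjusted p below 0.05 and no minimum change, they were 19, 10, 19, and 9 for E2 2 hr, E3 2 hr, E2 24 hr, and E3 24 hr against saline, 10 and 12 for E3 against E2, 20 and 13 for 24 against 2 hr of E2 and E3, and 14 for the interaction. Normexp background correction gave 2 for E2 at 24 hr, 1 and 1 for E3 against E2 at 2 and 24 hr, 6 for E2 at 24 against 2 hr, and 4 for the interaction. Quantile normalization gave 2 for E2 at 24 hr and 4 for the interaction. Without scaling, 1 probe (Greb1, -1.0) was called for E3 against E2 at 24 hr. For E2 at 24 hr, fitting the compared groups alone gave 2, and leaving out the 4 arrays with pancreas markers gave 1.

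Leaving out single arrays gave 8 to 9, 6 to 6, 2 to 5, and 0 to 0 called probes for E2 2 hr, E3 2 hr, E2 24 hr, and E3 24 hr against saline, with 2 for E2 at 24 hr without E2 24-hr replicate 1. It gave 2 to 3 and 0 to 1 for E3 against E2 at 2 and 24 hr, 12 to 13 and 6 to 6 for 24 against 2 hr, and 3 to 8 for the interaction. With the replicate number as a block the counts were 8, 6, 3, 0, 3, 0, 13, 6, and 7 in the same order of comparisons, and the call lost for E2 at 24 hr was that of Ep300 A_51_P142128. Same-numbered arrays correlated between -0.458 and 0.544. The slide as a random block changed no count. Normexp moved the median of all probes from 0.06 to 0.44 for E3 against E2 at 24 hr, from 0.12 to 0.50 for E3 at 24 against 2 hr, and from 0.11 to 0.48 for the interaction. Probes near background, among them both clone-derived Ep300 probes and A_52_P43661, have the least certain changes.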
